A study of Mus musculus with 6 samples.

Results

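The genes examined here encode the machinery of regulated secretion: the synaptotagmins, the SNARE proteins and their binding partners, the complexins, the synapsins, and the proteins of vesicle membranes and release sites. They were chosen by gene symbol, with earlier results of these data known. The rule took every probe annotated as Snap25, Snap91, Syp, Cadps or Cadps2. It also took every probe of the Syt, Syn, Stx, Stxbp, Vamp, Cplx, Sv2, Rab3, Rims and Unc13 families. This gave 141 of the 45276 probes on the array, for 71 of 19054 named genes. Of these, 51 genes were measured, out of 10524 measured genes in all, a measured gene being one with a probe above background on at least 3 of 6 arrays.

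RNA came from rhombomere 1, the hindbrain segment next to the midbrain, of E12.5 embryos of the ICR (CD-1) strain. The mutants, labelled gata2cko, were En1-cre, Gata2 flox/flox embryos and thus carried 2 floxed alleles of the gene for Gata2, a DNA-binding protein of neuronal precursors. The controls were En1-cre, Gata2 flox/+ embryos with 1 floxed allele; their samples are titled wildtype, although they carry the recombinase and a floxed allele as well. En1-cre acts in the midbrain and rhombomere 1, so that a change can arise in any cell type of that territory. Each group held 3 pools of 6 dissected pieces, read on 1 array each of the Illumina Mouse WG-6 type. In a tissue pool, fewer cells of a type and less RNA per cell cannot be told apart.

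Neurotransmitter is stored in vesicles that dock at the release site, are primed by Munc13 and RIM proteins, and fuse when a vesicle SNARE zips together with target-membrane SNAREs. Synaptotagmin 1 senses the calcium that enters with the action potential and triggers this step, and complexin holds the SNARE complex ready for it. Related syntaxins, VAMPs and synaptotagmins serve the Golgi, endosomes and constitutive secretion in all cells. In the embryonic hindbrain the neuronal members are switched on as young neurons leave the ventricular zone.

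The probe named for Gata2 did not check the deletion, since no source used here places it relative to the floxed sequence. It read 10.71, 10.41 and 10.48 on the control arrays and 10.79, 10.79 and 11.09 on the mutant arrays. All mutant pools thus lay above all controls, as they did for 7.69% of all genes. The difference was 0.36 ± 0.12 (SE, limma adjusted p = 0.412). The regional genes En1, En2 and Gbx2 were above background on all 6 arrays, as was Otx2, a midbrain gene. Otx2 had means of 8.33 in controls and 8.34 in mutants, with pools from 7.82 to 8.59 and from 8.11 to 8.74. Gbx2 varied more, reading 6.4, 7.91 and 6.95 in controls and 6.9, 8.06 and 8.31 in mutants, a difference of 0.67. En1 differed by -0.25 on its brighter probe and En2 by -0.18. The groups overlapped for En1, En2, Gbx2 and Otx2. Whether the pools held equal shares of each region was not tested. Between 42.8% and 45.1% of probes were above background on an array, and normalized values correlated across probes at 0.988 to 0.993 for arrays of 1 group and at 0.988 to 0.991 for arrays of different groups. All levels below are background-corrected, quantile-normalized log2 intensities; differences are mutant minus control with limma's standard error, over 3 pools in each group. Levels of different probes are not set against each other. The summed signals of marker lists add different probes on the linear scale, so the brightest genes of a list weigh most in its sum.

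The main difference among these genes was in Syt1, which encodes the calcium sensor of fast transmitter release and was lower in the mutants by every probe. Its brightest probe, the one used for the gene, read 11.65, 11.56 and 11.31 in controls and 10.82, 10.77 and 11.07 in mutants. The groups did not overlap, and the highest mutant pool, 3R, lay below the lowest control pool, 7R. The difference was -0.62 ± 0.12 (SE), with a 95% interval of -0.87 to -0.37, a 1.54-fold lower intensity. With Benjamini-Hochberg adjustment over all genes, limma gave an adjusted p of 0.0614 (unadjusted p = 0.000125), so the gene did not pass the threshold of 0.05.

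A second Syt1 probe read 9.53, 9.33 and 9.21 in controls and 8.31, 8.46 and 8.62 in mutants, again with no overlap. Its difference was -0.90 ± 0.12 (SE), 1.87-fold lower. When every probe was tested on its own this probe fell, with a limma adjusted p of 0.00785 over 19936 probes, of which 29, or 0.145%, were called. The dimmest probe read 7.69, 7.21 and 7.27 in controls and 6.87, 6.61 and 6.76 in mutants. It differed by -0.64 ± 0.15 (SE), with an adjusted p of 0.227 over all probes. Probes of a gene are read on the same arrays, so they check the probe and not the pools. With the detected probes averaged, Syt1 differed by -0.72 and passed over all genes (adjusted p = 0.0241). The adjusted p of Syt1 ranged from 0.0241 to 0.491 over 18 alternative fits, and was under 0.05 in 6 of them, while the difference stayed between -0.72 and -0.53.

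**Figure D1:**
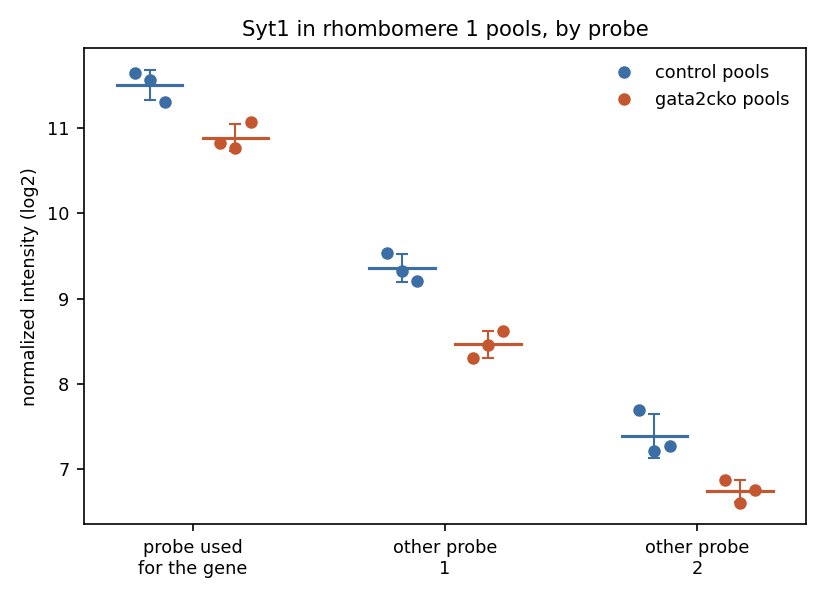
Normalized log2 intensity of the 3 Syt1 probes in each pool (points), with group means (bars) and SD (error bars, n = 3). On all 3 probes every mutant pool lies below every control pool, with differences of -0.62, -0.90 and -0.64.

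The stretch before the first nucleotide of Syt1 is shown because it held a match to a searched motif. Stretches without a match are not shown, among them that of the other Syt1 window. Syt1 also had the lowest p among these genes. The RefSeq table used here (GRCm38.p6) holds 2 windows for Syt1 on chromosome 10, minus strand, and the 250 bases before the start in the more upstream one lie at chr10:109010976-109011225. Capitals mark the match to AGATAA, a motif bound by GATA factors, read here on the opposite strand.
Syt1: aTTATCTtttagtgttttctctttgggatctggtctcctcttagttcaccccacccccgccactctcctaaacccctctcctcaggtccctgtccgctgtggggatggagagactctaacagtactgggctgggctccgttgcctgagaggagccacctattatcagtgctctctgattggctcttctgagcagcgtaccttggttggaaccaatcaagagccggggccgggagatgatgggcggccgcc
The match begins 249 bases before the start. AGATAA, searched on both strands, occurred in 11.2% of 32851 such windows, each of 300 bases, 250 before and 50 after a start. TGACGTCA, the cyclic AMP response element, was searched in the same way and occurred in 1.79% of all windows. The motifs do not overlap in their letters. Over the 10 members with the lowest p in each direction, 18 of 20 had a window. Of these 18 genes Syt1 alone had an AGATAA match and 0 had TGACGTCA. Counted by gene, 3432 of all 27025 genes with a window had an AGATAA match and 549 a TGACGTCA match. Other forms of these motifs were not searched or marked. These are matches of letters and no measure of binding.

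Across the whole set, 0 of 51 measured members passed at an adjusted p under 0.05 (limma), against 18 of 10524 genes, 0.171%. At an unadjusted p under 0.05, 7 members were lower, 13.7% of those measured, where 4.48% of all genes were lower, and 0 were higher, where 4.34% of all genes were. The 7 were Syt1, Rims1, Syn2, Rims3, Syt16, Vamp2 and Cplx1, and 5 of them belong to the 14 measured genes of the core release machinery. With ordinary unmoderated statistics, 7 members were lower and 1 higher at this limit, and 0 passed after adjustment. These 7 were not the same genes: they held Stxbp5 and Unc13b in place of Vamp2 and Cplx1. In 7 members all 3 mutant pools lay below all 3 control pools, where this held for 6.45% of all genes. In 3 members, Vamp8, Stxbp4 and Stx4a, all mutant pools lay above all controls, where 7.69% of all genes did so.

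The shift over the set was small. The median difference of the 51 measured members was -0.07, beside 0.01 for all tested genes, with 30 members lower and 21 higher. With median scaling in place of quantile normalization the median of the members was 0.01 and that of all tested genes 0.084, so the members' median turned sign while still lying below that of all genes, and the members at p under 0.05 numbered 3. Pool by pool, the median deviation of the members from the control mean was 0.00, 0.05 and -0.05 on control arrays 5R, 6R and 7R, and -0.07, -0.07 and -0.06 on mutant arrays 1R, 2R and 3R. The mutant medians lay close together, just below that of control array 7R.

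Marker genes of cell classes were read in the same samples. Of 11 measured pan-neuronal genes 8 were lower, with a median of -0.08 and 0 passing, and their summed linear signal ran from 29400 to 32600 in controls and from 28100 to 31200 in mutants. Nefl was the pan-neuronal gene not measured, and Tubb3 was close to background, with means of 5.52 in controls and 5.44 in mutants. Of 6 measured progenitor genes 5 were higher, with a median of 0.18 and 0 passing. Their summed signal was 7800 to 9330 in controls and 9410 to 10800 in mutants, and Pax6 was not measured. Hes5 was higher by 0.37 with no overlap (limma adjusted p = 0.331), and Sox2 was the lower one, at -0.09. Of 9 measured serotonergic genes 8 were lower and 6 fell at an adjusted p under 0.05, and their summed signal was 3330 to 4280 in controls and 831 to 942 in mutants. All 3 GABAergic genes were lower, with a median of -0.22 and 0 passing; Gad1, which encodes a GABA-synthesising enzyme, differed by -0.37 with no overlap, and the summed signal was 5470 to 6440 in controls and 4410 to 6110 in mutants. Of the glutamatergic genes Slc17a6 differed by 0.02, and Slc17a7 was not above background.

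Genes of cells other than neurons were read too, and among them Acta2 alone passed. All 4 erythroid genes were higher, with a median of 0.25 and 0 passing; all mutant pools lay above the controls for the embryonic globins Hbb-bh1 at 0.53 and Hba-x at 0.41, and the summed signal was 49600 to 56100 in controls and 52700 to 60900 in mutants. All 3 microglial genes were lower, with a median of -0.16 and 0 passing, and their summed signal was 140 to 160 in controls and 128 to 133 in mutants. These genes were near background: Csf1r was above it on 3 control arrays and 1 mutant array, and C1qa on 2 arrays of each group. Acta2, a smooth muscle actin of the mesenchyme list, rose (limma adjusted p = 0.00132), with a mutant mean of 6.21 ± 0.24 (SD, n = 3). It was above background on 3 mutant and 0 control arrays, so no size is given, and Col1a1 and Col3a1 were not above background. The endothelial genes Pecam1 and Cdh5 differed by 0.11 and -0.05, and Kdr was not above background. The part of all these differences in the lower signal of Syt1 and the other members was not tested.

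**Figure D2:**
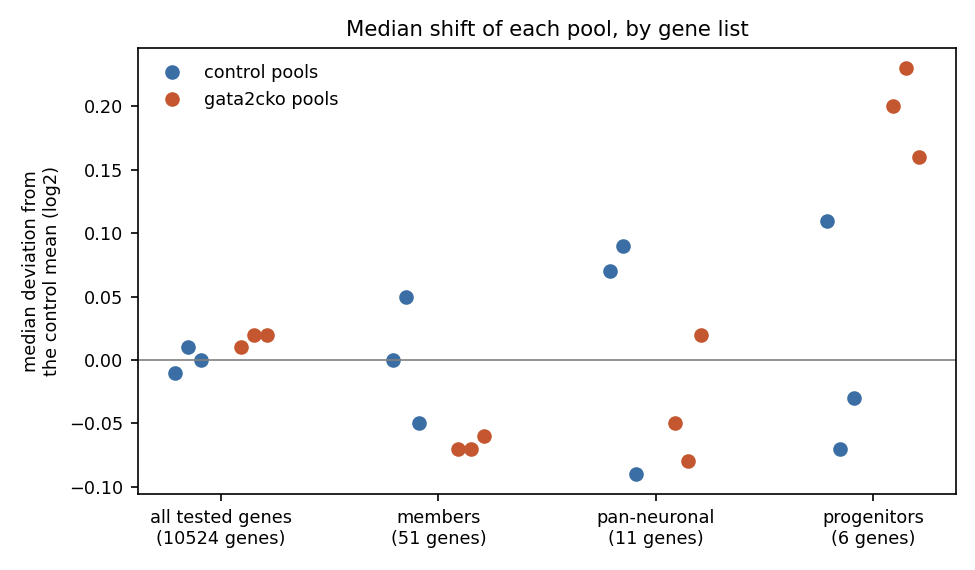
Median deviation of each pool from the control mean (log2) over all 10524 tested genes, the 51 members, 11 pan-neuronal and 6 progenitor genes; a point is a pool. The 3 mutant pools lie at -0.07, -0.07 and -0.06 for the members and overlap the controls for the pan-neuronal genes. For the progenitor genes they lie at 0.2, 0.23 and 0.16, above the controls at 0.11, -0.07 and -0.03.

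Besides Syt1, 8 other synaptotagmins of the 17 on the array were measured, and 7 of the 9 were lower, with 0 passing and a median of -0.10. Syt16, an atypical member of the family, read 9.76, 9.73 and 9.68 in controls and 9.14, 9.43 and 9.54 in mutants. All mutant pools lay below the controls, by -0.35 ± 0.12 (SE; limma adjusted p = 0.412). Syt4, found on neuronal secretory vesicles and induced by activity, read 10.92, 11.48 and 11.37 against 11.08, 11.23 and 11.34. These groups overlapped fully, with a difference of -0.04 and a 95% interval of -0.33 to 0.25. Syt11, a calcium-insensitive synaptotagmin, had probes of opposite sign, at -0.10 and 0.23. Syt14 at -0.30, Syt9 at -0.20, Syt5 at -0.07, Syt7 at 0.02 and Syt13 at 0.06 had intervals that included 0. Syt2, the calcium sensor of fast hindbrain synapses in the adult, was not above background on any array, nor were Syt3, Syt6, Syt10, Syt12, Syt15 and Syt17.

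The Rab3 and RIM proteins of vesicle docking had 6 of 8 members measured, 4 lower and 2 higher, with a median of -0.10 and 0 passing. Rims1 encodes the scaffold that links Rab3 on vesicles to Munc13 and calcium channels. Its brightest probe read 8.01, 7.79 and 7.75 in controls and 7.29, 7.39 and 7.42 in mutants, with no overlap. The difference was -0.48 ± 0.12 (SE; limma adjusted p = 0.265), 1.40-fold lower. A second measured probe, close to background with a control mean of 5.33, differed by -0.17 (95% interval -0.53 to 0.19). Rims3, a short relative of RIM, read 10.07, 10.23 and 10.04 against 9.74, 9.67 and 9.90, also without overlap, and differed by -0.34 ± 0.10 (SE; limma adjusted p = 0.375). Rims2 had the other sign, at 0.14, with an interval of -0.13 to 0.40. Both Munc13 genes measured were lower, Unc13b at -0.17 (10.92, 11.01 and 10.90 against 10.86, 10.72 and 10.74) and Unc13c at -0.05, and neither passed.

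Rab3a, the main GTPase of synaptic vesicles, gave unlike values by probe. The brighter probe read 10.54, 10.45 and 10.11 in controls and 10.11, 10.23 and 10.53 in mutants, fully overlapping, with a difference of -0.07 (95% interval -0.37 to 0.22). The dimmer probe read 7.48, 7.30 and 6.93 against 6.69, 6.53 and 6.83. On that probe all mutant pools lay below the controls, by -0.55 ± 0.16 (SE; limma adjusted p = 0.332 over all probes). Rab3b, at -0.12 and -0.23 by its 2 probes, and Rab3d, at 0.04, had intervals around 0. Rab3c and Rims4 were not above background on any array.

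Among the synapsins, which tether vesicles in the reserve pool, Syn2 had the largest difference of the 3 measured. It read 9.17, 9.18 and 9.00 in controls and 8.70, 8.34 and 8.82 in mutants, with no overlap. The difference was -0.50 ± 0.13 (SE; limma adjusted p = 0.311), 1.41-fold lower, and 2 other Syn2 probes were not above background. Syn1 read 9.27, 9.37 and 8.94 against 9.10, 8.75 and 9.43. These overlapped, at -0.10, and its second probe gave -0.19. Syn3 was dim and its 3 measured probes ranged from -0.24 to 0.08. Syn2 lies on chromosome 6, as does Gata2 itself. The other measured members on this chromosome were Cadps2 at -0.21, Vamp1 at 0.05 and Vamp8 at 0.27. Whether the shared chromosome bears on these values was not tested.

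**Figure D3:**
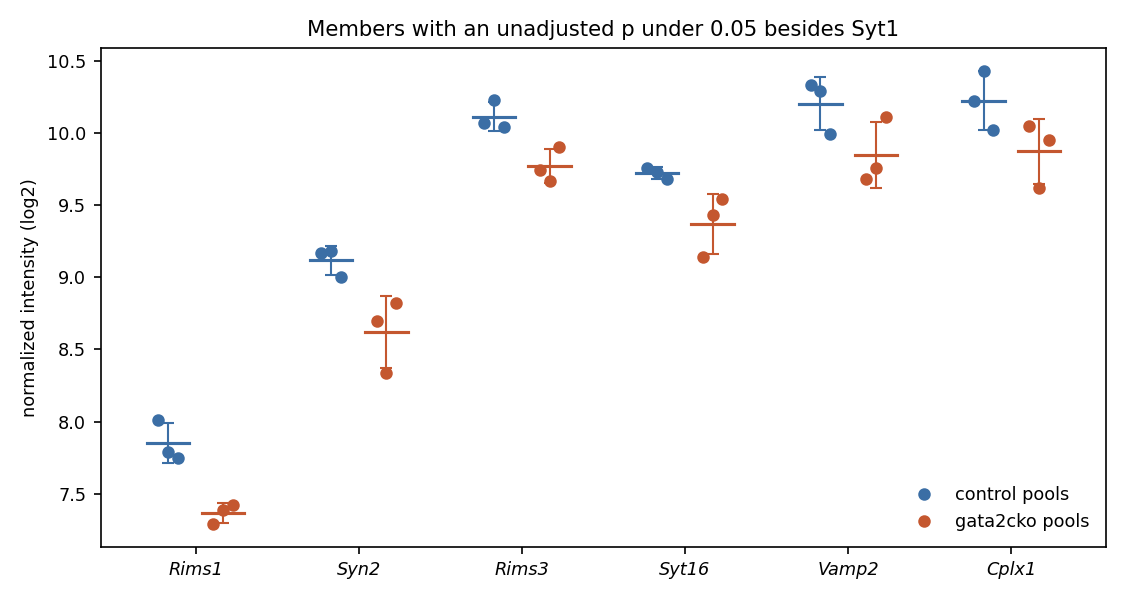
Normalized log2 intensity in each pool (points), with group means (bars) and SD (error bars, n = 3), for the 6 members besides Syt1 with an unadjusted p under 0.05. The mutant pools lie below all controls for Rims1, Syn2, Rims3 and Syt16, and overlap with them for Vamp2 and Cplx1.

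Of the vesicle SNAREs, 6 of 7 were measured, and Vamp2 alone was lower. Vamp2, or synaptobrevin, is the vesicle SNARE of most central synapses. It read 10.33, 10.29 and 9.99 in controls and 9.68, 9.76 and 10.11 in mutants. Mutant pool 3R lay above control pool 7R, and the difference was -0.36 ± 0.13 (SE; limma adjusted p = 0.467). Vamp1, its close relative of spinal and hindbrain synapses, was dim, and its 4 probes ranged from -0.06 to 0.08. The broadly expressed Vamp3 differed by 0.06 and the endosomal and Golgi forms Vamp4 by 0.07 and Vamp7 by 0.02. Vamp8, an endosomal and secretory granule form, read 5.92, 5.75 and 5.52 in controls and 6.12, 5.93 and 5.95 in mutants, so that all mutant pools were above, by 0.27 (95% interval -0.05 to 0.59), close to background. Vamp5 was not above background on any array.

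Of the target-membrane SNAREs, 12 of 15 were measured, 6 lower and 6 higher, with a median of 0.00 and 0 passing. Stx1a, the syntaxin of the presynaptic membrane, read 9.89, 10.11 and 9.80 in controls and 9.94, 9.62 and 9.58 in mutants. These groups overlapped, at -0.22 ± 0.12 (SE; limma adjusted p = 0.650). Stx6, of the trans-Golgi network, was lower by its 2 probes, at -0.27 and -0.32, of which the first overlapped between groups and the second did not. Stx2, a syntaxin of the plasma membrane of many cells, was higher at 0.28 (95% interval -0.06 to 0.63), also with overlap.

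The other target-membrane SNAREs did not pass either. Stx5a, of traffic from the endoplasmic reticulum to the Golgi, differed by 0.01 (95% interval -0.23 to 0.25) and Stx7, of late endosomes, by 0.00 (-0.21 to 0.21). Stx12 at -0.08, Stx17 at 0.12, Stx18 at 0.09, Stx3 at -0.18 and Stx19 at 0.06 had intervals around 0 too. So did Stx4a, a syntaxin of the plasma membrane, at 0.12, although all its mutant pools lay above the controls. Stx8, an endosomal syntaxin, had 5 measured probes. Of these, 4 lay between -0.06 and 0.04, and a dim one read 5.55, 6.27 and 6.15 against 6.59, 6.99 and 5.95, at 0.52. Snap25, the plasma membrane partner of syntaxin at synapses, was not above background on any array by either probe. Its levels were 4.29 to 4.44 in controls and 4.25 to 4.55 in mutants, and whether these probes can read Snap25 RNA was not tested. Stx11 and Stx16 were not above background on any array either.

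The 2 measured complexins differed in sign. Cplx1 read 10.22, 10.43 and 10.02 in controls and 10.05, 9.62 and 9.95 in mutants, overlapping by the margin between mutant pool 1R and control pool 7R. The difference was -0.35 ± 0.13 (SE; limma adjusted p = 0.498). Cplx2 read 8.82, 8.80 and 8.62 against 9.20, 8.31 and 9.05, at 0.11 (95% interval -0.29 to 0.51), and its mutant pools were spread around the controls. Cplx3 and Cplx4, the complexins of retinal ribbon synapses, were not above background on any array.

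Proteins of the vesicle membrane and coat did not pass. Syp, synaptophysin, read 10.05, 10.16 and 9.92 in controls and 9.62, 10.03 and 10.19 in mutants, a difference of -0.10 (95% interval -0.40 to 0.20). Sv2a, a glycoprotein of synaptic vesicles, read 10.04, 10.12 and 9.16 against 9.82, 9.47 and 9.70. Here control pool 7R was the lowest of all 6, and the difference was -0.11 (95% interval -0.55 to 0.33). Without 7R it was -0.41 (limma unadjusted p = 0.00729, n = 2 control pools), a widening that removing the lowest control must give. The lowest limma adjusted p of Sv2a over 18 alternative fits was 0.404. Sv2b differed by -0.23 near background. Snap91, the clathrin adaptor AP180 that retrieves vesicle membrane, differed by 0.00 on its brightest probe and by -0.41 on a dim one. Sv2c was not above background on any array.

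The same pools stood at the ends of several neuronal members. On the probe used for each gene, control pool 7R was the lowest control for Syt1, Rims1, Rims3, Syn2, Syt16, Vamp2, Cplx1, Rab3a, Syn1, Sv2a and Syp. Mutant pool 3R was the highest mutant for Syt1, Rims1, Rims3, Syn2, Syt16 and Vamp2, but not for Cplx1 or Sv2a. The median of the pan-neuronal genes was also lowest in 7R among controls and highest in 3R among mutants. Median deviations were 0.07, 0.09 and -0.09 on 5R, 6R and 7R and -0.05, -0.08 and 0.02 on 1R, 2R and 3R. Not every pan-neuronal gene had this order. Map2 read 11.84, 11.82 and 11.92 on 5R, 6R and 7R and 12.02, 11.56 and 11.67 on 1R, 2R and 3R. Without 7R, Syt1 differed by -0.72 (limma adjusted p = 0.0447), and without 3R by -0.71 (limma adjusted p = 0.0394). Without 5R, the highest control for Syt1, the value was -0.55 (limma adjusted p = 0.335). Leaving out the lowest control or the highest mutant must widen the difference, and leaving out the highest control must narrow it.

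Of the syntaxin-binding proteins, 5 of 6 were measured and 0 passed. Stxbp5, or tomosyn, which blocks SNARE assembly, read 7.27, 7.37 and 7.30 in controls and 7.01, 7.14 and 7.06 in mutants. There was no overlap, but the difference was only -0.25 ± 0.12 (SE; limma adjusted p = 0.589), and a second, dimmer probe gave 0.00. Stxbp4 read 8.25, 8.15 and 8.26 against 8.41, 8.30 and 8.44, with all mutant pools above, at 0.16 (95% interval -0.08 to 0.39). Another Stxbp4 probe differed by 0.27 (limma unadjusted p = 0.0362, adjusted p = 0.531 over all probes) and one more differed by -0.02. Stxbp2, of granule release in blood and epithelial cells, differed by 0.21, Stxbp3 by -0.25 and Stxbp5l by -0.09. Stxbp6 was not above background.

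The CAPS proteins prime dense-core granules. Cadps read 10.53, 10.74 and 10.70 in controls and 10.49, 10.97 and 10.83 in mutants, overlapping, at 0.11 (95% interval -0.16 to 0.38). Cadps2 read 8.75, 8.04 and 8.70 against 8.26, 8.33 and 8.27, at -0.21 (95% interval -0.57 to 0.14), and its mutant pools lay between the control values.

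**Figure D4:**
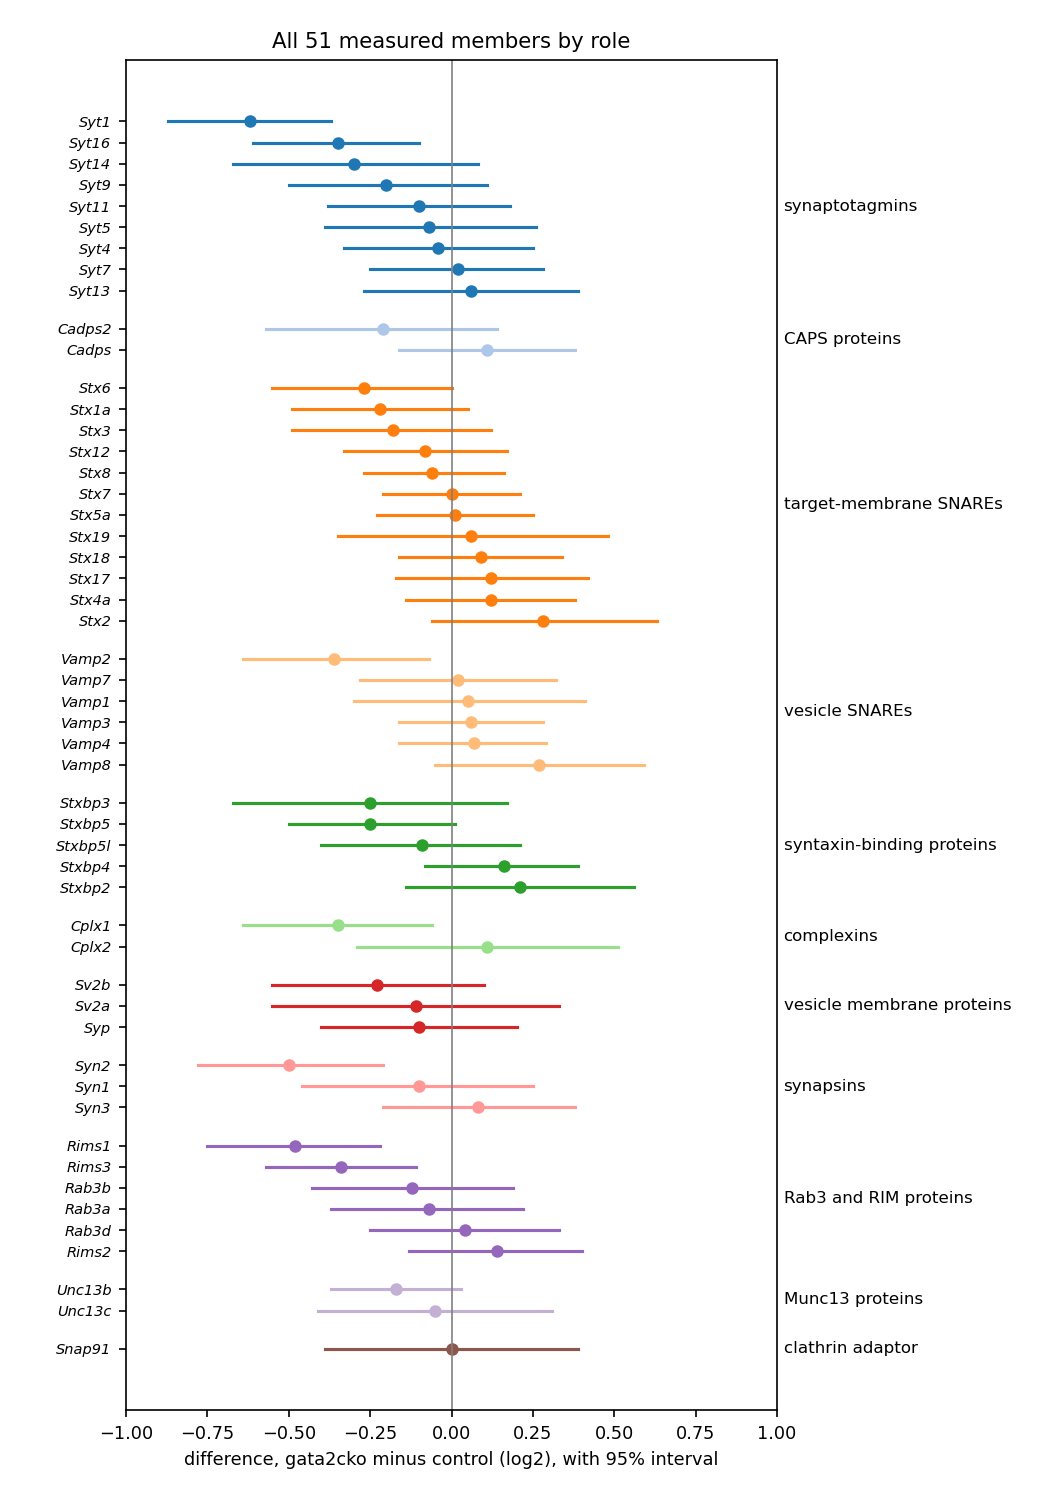
Difference in log2 intensity, mutant minus control, for all 51 measured members grouped by role, with 95% intervals (n = 3 per group). The intervals of Syt1, Syt16, Vamp2, Cplx1, Syn2, Rims1 and Rims3 lie below 0, and no interval lies above it.

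The array carried 20 members that were not measured, and 17 of these had no probe above background on any array. The others were Syt8 and Unc13d, each above background on 1 mutant array, and Unc13a. Unc13a encodes Munc13-1, the main priming factor of excitatory synapses, and its brighter probe read 4.63, 4.94 and 4.76 in controls and 5.18, 4.81 and 5.20 in mutants, being above background on 2 mutant and 0 control arrays. At this level no fold can be given. Of the 51 measured members, 49 had their probe above background on all 6 arrays.

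How far probes of a gene agreed could be read in 20 members with at least 2 measured probes. In 5 of them, Stx8, Stxbp4, Syn3, Syt11 and Vamp1, probes had opposite signs at 2 decimals. In Snap91 and Stxbp5 1 probe stood at 0.00 and the other was lower. Over all 80 measured member probes, 47 were lower and 33 higher; 12 were lower and 1 higher at an unadjusted p under 0.05, limits that 4.86% and 3.98% of all 19936 probes passed in these directions. The 12 came from 10 genes, since 3 were probes of Syt1; Rab3a, Snap91 and Stx6 were added to the 7 genes above. The annotation does not say which transcripts each probe reads.

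**Figure D5:**
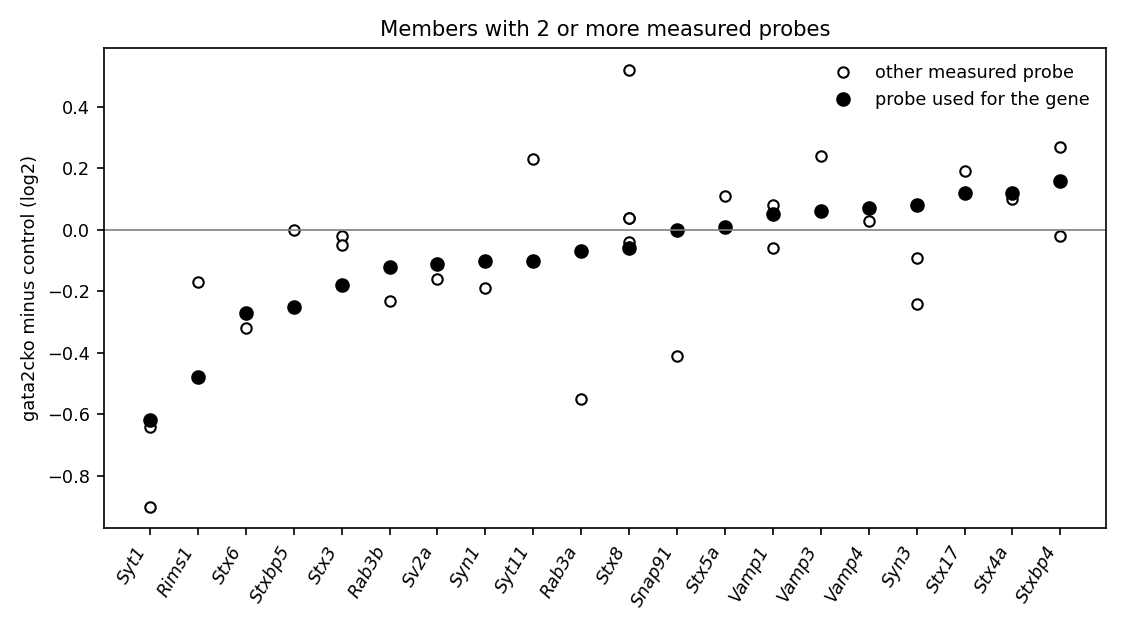
Difference in log2 intensity, mutant minus control, of each measured probe for the 20 members with at least 2; filled points are the probe used for the gene, open points the others. The 3 Syt1 probes lie lowest, between -0.90 and -0.62, and Rab3a has probes at -0.07 and -0.55.

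Genes of the same pathway outside these families were read from a list of 64, of which 61 had a named probe and 53 were measured. Of the 53, 33 were lower and 20 higher, with a median of -0.04, and 0 passed after adjustment. At an unadjusted p under 0.05, 0 were lower and 1 was higher, Sncg, a synuclein, at 0.35. Fusion and SNARE recycling genes had a median of -0.04, with Nsf, the ATPase that takes SNARE complexes apart, at -0.04 and its adaptor Napb at -0.13. Vesicle membrane genes had a median of -0.04, endocytosis genes -0.05, exocyst genes -0.04 and active zone scaffolds -0.02. The active zone protein Pclo differed by -0.02 and the scaffold Erc2 by -0.13. By sign alone, 58.8% of the members and 62.3% of these genes were lower. At an unadjusted p under 0.05, 13.7% of the members and 0 of these genes were lower, a contrast that was not tested.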

How the data were processed

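Probe intensity was deposited for 6 arrays on a linear scale, without normalization per the file headers. The authors' deposited detection p-value stands beside each intensity. The submitters' processing notes name GenomeStudio 1.0. The columns name genotype and an array number that no sample title holds, so each counted as an unnumbered replicate. A second deposited table holds linear intensity in which at least 98.3% of sorted positions were equal between columns, as quantile normalization leaves them; it served as an alternative.

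With limma 3.58.1 in R 4.3.3, intensities were corrected and normalized by neqc (offset 16), keeping 19936 probes detected (p-value under 0.05) on 3 or more arrays for the fit (lmFit, eBayes with an intensity trend). Symbols came from a platform annotation. The brightest of a gene's probes over all arrays was used, with Benjamini-Hochberg adjustment over 10524 genes. Background correction widens differences of dim probes. The number of arrays limits the precision. The members and lists were chosen with earlier results of these data known, and the fit was tested on simulated data.

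Genes were named as follows: the 10 members with the lowest p in each direction, the core release machinery, members whose probes differed in sign, and the 5 with the highest control mean; other members are given by value or range. Titles give replicate numbers 1 to 3 in each group. On the second table same-numbered pools deviated with correlations of -0.0388, -0.0851 and -0.301, so the numbers were not taken as pairs.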

Additional observations from a re-analysis of the deposited data

How the results depend on the processing

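Of the 20 alternatives, 8 let 1 member or member probe pass in place of 0, each time Syt1: no detection filter, the mean of the detected probes, each probe counted on its own, robust hyperparameters, array weights, a threshold of 0.1, and leaving out control 7R or mutant 3R (0 to 1 over the pools left out). The members lower at an unadjusted p under 0.05 were 3 with median scaling and 12 when probes were counted, and stayed within 5 to 9 leaving out pools. Those higher were 2 without the detection filter, 1 when probes were counted, 1 with unmoderated statistics and 0 to 2 leaving out pools. The median difference was 0.01 with median scaling, which raised the median of all genes to 0.084, -0.03 without the detection filter, where undetected members entered, and -0.10 to -0.03 leaving out pools. All genes changed numbered 29 probes when probes were counted, 0 with unmoderated statistics and 12 to 52 leaving out pools, with 52 without mutant 1R. Syt1, Rims1 and Syn2 stayed at an unadjusted p under 0.05 in all 18 gene-level fits, Rims3 and Syt16 in 17, Cplx1 in 13 and Vamp2 in 12. With a replicate block on the authors' normalized table, Syt1 differed by -0.63 (limma adjusted p = 0.261) and 0 members passed, as without the block (adjusted p = 0.0774); all genes changed were 14 with the block and 18 without. The causes of these changes were not tested. Probes near background, and 20 members not measured, limit what could be seen.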
